A study of Mus musculus with 5 samples.

Results

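The mouse olfactory receptor genes made up 1109 of the 27179 genes (4.08%) in the deposited count tables. They were chosen by symbol alone, as every gene named Olfr followed by a digit, matched through its Entrez identifier. A further 17 genes with -ps symbols, which mark pseudogenes, were left out, and no gene carried one of the newer Or names. RefSeq types 1101 of the members as protein coding, 7 as pseudogenes and 1 otherwise.

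Olfactory receptors are G protein-coupled receptors of the sensory neurons of the nose. Each mature neuron expresses a single receptor allele, and the many other copies stay packed in silent chromatin, in long tandem clusters. Class I genes, related to the receptors of fish, lie in one cluster beside the beta-globin genes, and class II genes form the other clusters. Blood cells have no known use for the family, so counts over it are often read as the floor of a chromatin assay.

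Sorted LSK cells, the lineage-negative marrow cells with Sca-1 and Kit on their surface that include the blood stem cells, were taken from male C57BL/6 mice. The knockout libraries came from Hbo1def/def; T/+ mice and the controls from Hbo1def/+; T/+ mice, so every library comes from cells with at least 1 def allele and the T allele. Per the labels, all mice received poly(I:C), which switches on Mx1-cre, so both groups were also exposed to an interferon-inducing agent and to the recombinase; Mx1-cre acts in other tissues too. H3K14ac, an acetylation of histone H3 that the enzyme HBO1 (KAT7) can write, was profiled by CUT&Tag in 2 knockout and 2 control libraries; a library made with an HBO1 antibody from control cells was not analysed here.

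Reads had been counted over the 5 kb before each gene's start, the gene body, and the 5 kb after its end. Counts summed over these 3 region classes came to 6466740 and 7633706 in the knockout libraries and 14811651 and 12793434 in the controls. The upstream share of counts that fell on the olfactory receptor genes was 0.962% in knockout replicate 1, with a 95% Wilson interval of 0.944% to 0.981%, against 1.95% in knockout replicate 2 (1.92% to 1.98%). These intervals cover counting error only, since copies made by PCR are not independent molecules. The knockout libraries thus differed from each other by more than counting error, and no further knockout library shows how wide their usual spread is. All other genes had an upstream over downstream density ratio of 1.58 in knockout replicate 1 and 1.19 in knockout replicate 2, against 0.918 and 0.939 in the controls. The labels do not say that the libraries of a group came from separate mice, so each p-value measures only the spread between these samples. Kat7, the targeted gene, had 88.2 and 39.1 CPM (library-scaled counts, with totals adjusted by TMM) over its gene body in the knockout libraries, against 30.7 and 30.1 CPM in the controls; a histone mark over the gene does not show whether its coding sequence is deleted. All 10 LSK marker genes had upstream counts, at a median level of 15.4 CPM per kb, 7.03 times the olfactory receptor median. Over gene bodies their median was 2.80 times the receptor median, and downstream 5.27 times.

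Sequences of 4 start sites show what the windows hold. Each has 300 bases, 250 before the annotated start and 50 from it on, taken from RefSeq on GRCm38.p6, with every CG pair in capitals, since promoters rich in such pairs are common sites of histone acetylation. Olfr631 (chr7:103914812-103915111, + strand) lies 61855 bp from the nearest beta-globin gene and had the second highest upstream level. Olfr455 (chr6:42538971-42539270, - strand) fell in all 3 region classes. Olfr433 (chr1:174041683-174041982, + strand) had more counts in the knockout libraries. Olfr473 (chr7:107933272-107933571, + strand) had an upstream level next to the family's median.
Olfr631: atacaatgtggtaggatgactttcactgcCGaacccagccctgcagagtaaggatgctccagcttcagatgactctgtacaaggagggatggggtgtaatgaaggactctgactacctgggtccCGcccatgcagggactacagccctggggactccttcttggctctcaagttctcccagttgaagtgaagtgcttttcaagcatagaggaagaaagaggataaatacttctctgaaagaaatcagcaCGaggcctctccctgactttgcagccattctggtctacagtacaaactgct
Olfr455: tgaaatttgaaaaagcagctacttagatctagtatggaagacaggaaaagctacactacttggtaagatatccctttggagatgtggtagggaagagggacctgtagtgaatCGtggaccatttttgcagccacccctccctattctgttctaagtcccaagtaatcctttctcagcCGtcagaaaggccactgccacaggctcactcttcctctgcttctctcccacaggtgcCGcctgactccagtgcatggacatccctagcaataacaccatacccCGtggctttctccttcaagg
Olfr433: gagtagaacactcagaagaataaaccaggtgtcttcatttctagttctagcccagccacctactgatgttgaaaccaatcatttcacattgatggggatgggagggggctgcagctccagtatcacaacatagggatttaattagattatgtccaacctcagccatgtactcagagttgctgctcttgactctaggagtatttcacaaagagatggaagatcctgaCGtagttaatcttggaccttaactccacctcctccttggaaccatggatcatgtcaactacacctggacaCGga
Olfr473: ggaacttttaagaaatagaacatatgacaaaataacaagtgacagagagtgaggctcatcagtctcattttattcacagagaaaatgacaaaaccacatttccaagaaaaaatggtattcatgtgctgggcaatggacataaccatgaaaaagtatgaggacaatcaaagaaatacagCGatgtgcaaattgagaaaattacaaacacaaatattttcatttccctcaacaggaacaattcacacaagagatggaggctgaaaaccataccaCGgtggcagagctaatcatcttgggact

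These windows held 3, 4, 2 and 2 CG pairs in that order. RefSeq start windows were at hand for 937 of the 1109 genes, with a median of 1 CG pair and at most 13, and 314 of them (33.5%) held none. Over all 27025 promoters of the same length the median was 7, and 5.78% held none. In all, 3 short motifs were searched on both strands. TAATTA, a core bound by homeodomain factors such as LHX2, was in 18.8% of the family's windows and 5.31% of all windows. CCCNNGGG, the core bound by EBF factors, was in 3.09% and 13.4%, and AGATAA, a form of the GATA factor site, in 28.0% and 11.4%. Among the printed windows Olfr631 held CCCNNGGG, Olfr433 held TAATTA, and none held AGATAA. A match here is only a match of letters.

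The genes lie on 17 chromosomes in 49 clusters, where a gap over 1 Mb starts a new cluster. Chromosome 2 holds 288, chromosome 7 holds 238 and chromosome 9 holds 132. The largest cluster has 224 genes (chromosome 2, 85330967 to 90401674), and 9 genes stand alone. By their MOR family names in RefSeq, 123 are class I, all on chromosome 7, 962 are class II, and 24 have no such name. The median deposited length was 945 bp and 999 genes were under 1200 bp, so the gene body class mostly covers a short coding stretch, whereas each flank is 5 kb. The median GC content was 36.4% upstream, 43.1% in gene bodies and 37.5% downstream, against 44.8%, 45.7% and 44.9% for all other genes.

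The first question was how much signal the family carries. To compare region classes and libraries on 1 scale, CPM per kb was computed with the library total pooled over the 3 region classes as denominator; this quantity is called the density. Over upstream regions the summed density was 0.286 and 0.401 in the knockout libraries, against 0.448 and 0.444 in the controls. Over gene bodies it was 0.482 and 0.644 in knockout, against 0.839 and 0.782 in control, and downstream 0.259 and 0.352 in knockout, against 0.384 and 0.388 in control. In each region class both knockout libraries were below both controls. The ratio of means, knockout over control, was 0.769 upstream, 0.694 in gene bodies and 0.792 downstream. With 2 libraries against 2 the exact two-sided permutation test cannot go below p = 0.333, the value it gave in each region class. Density is a share of each library's counts, so it can also be lower when counts elsewhere are higher. The mean summed density of all other genes was 1.05 in knockout and 0.606 in control upstream. It was 0.743 and 0.812 over gene bodies, and 0.757 and 0.653 downstream. In these bulk cells, less of the mark in every cell, fewer cells with the mark and more of it elsewhere cannot be told apart.

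The middle of the family differed less than its sum. The median upstream density was 0.186 and 0.262 in the knockout libraries and 0.216 and 0.250 in the controls, so the groups overlapped (exact permutation p = 1, 2 libraries per group). Downstream it was 0.186 and 0.236 in knockout and 0.203 and 0.234 in control, again overlapping. In gene bodies the groups did not overlap, at 0.330 and 0.436 in knockout against 0.489 and 0.579 in control. All other genes had a mean over libraries of the median upstream density of 0.738 in knockout and 0.446 in control. Over gene bodies the mean summed density in control was 0.811 for the family and 0.812 for all other genes. In knockout it was 0.563 and 0.743. Averaged over the libraries, 40.7% of the receptor genes lay above the other genes' median level over gene bodies, 20.5% upstream and 19.9% downstream. The other silent sensory receptors, 406 vomeronasal, trace amine and taste receptor genes, had a summed upstream density of 0.202 and 0.257 in knockout, against 0.270 and 0.273 in control. The olfactory receptors were 1.42 and 1.56 times as dense as these upstream in knockout and 1.66 and 1.63 times in control.

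**Figure D1:**
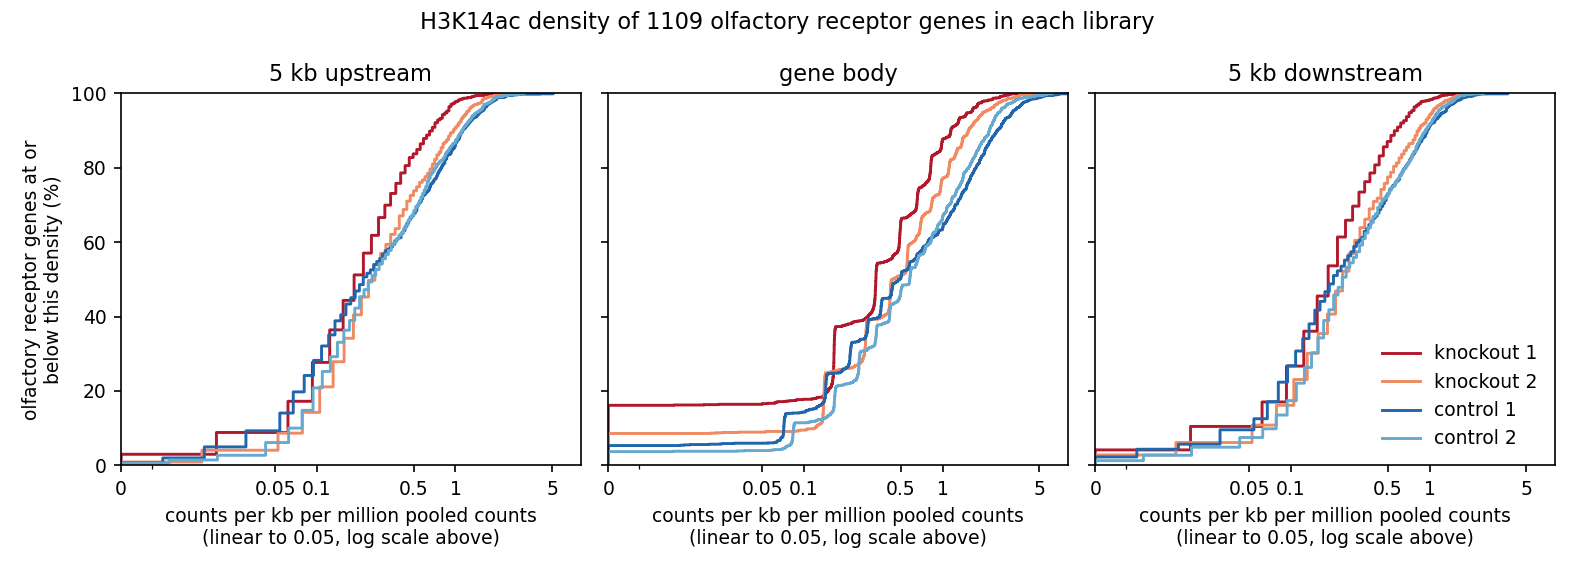
Cumulative share of the 1109 olfactory receptor genes (vertical axis, %) at or below a given H3K14ac density (horizontal axis, CPM per kb on pooled totals, linear to 0.05 and logarithmic above), with a line for each of 2 knockout and 2 control libraries and a panel for each region class. The upstream lines cross near their medians of 0.186 and 0.262 in knockout and 0.216 and 0.250 in control, and the control lines extend further at the dense end.

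Few counts lie behind each gene. The median upstream count per gene was 6 and 10 in the knockout libraries and 16 in each control, and the highest was 78 and 116 in knockout and 376 and 201 in control. In gene bodies the median was 2 and 4 in knockout and 8 in each control, and 179 and 95 genes had no count in knockout, against 59 and 41 in control. Variance over genes divided by the mean was 8.83 and 14.8 upstream in knockout and 44.5 and 31.6 in control; this ratio grows with depth, so the groups are not compared by it. Olfr56 on chromosome 11 held the most gene body counts, with 624 and 710 in knockout and 888 and 859 in control, but its deposited length of 84655 bp far exceeds the 1215 bp of its annotation, so these counts need not be its own.

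The family had low outliers in level but no high ones. Ranked by level, the mean over the 4 libraries of TMM-scaled CPM per kb, the 90th percentile was 13.0 times the 10th upstream, 13.3 times in gene bodies and 11.1 times downstream. Levels are scaled within a region class and are not compared between classes. No gene lay more than 3.5 robust SD above the median of log2(level + 0.01) in any class. The low outliers were 3 genes upstream, 6 in gene bodies and 7 downstream, each with 0 or 1 count over all libraries. Upstream they were Olfr1506, Olfr482 and Olfr834, all at 0 counts. Of the 50-base stretches in their upstream windows, Olfr1506 shares 100% and Olfr834 82.7% with other places in the regions of the family. Olfr482 shares 0.990%, and the rest of the genome was not searched for copies. Reads from shared stretches may not have been assigned to 1 place, so a count of 0 in Olfr1506 or Olfr834 says little.

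Rank across libraries was closer between controls than between knockout libraries. Over the 1109 genes, Spearman's rho of the upstream counts was 0.925 between the controls and 0.772 between the knockout libraries; over gene bodies it was 0.878 and 0.606, and downstream 0.915 and 0.734. Over gene bodies the rho of a knockout library with a control was 0.660 to 0.772. These values stand as a description across genes that share each library's depth. Levels of the same gene in different region classes had a rho from 0.744 to 0.830, and rho of level with GC content was 0.652 upstream, 0.676 in gene bodies and 0.506 downstream.

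The highest upstream levels belonged to Olfr524, Olfr631, Olfr648, Olfr520 and Olfr763, all but the last on chromosome 7. Olfr524 (chromosome 7, 140201386 to 140205279) had 47.7 and 105 CPM upstream in the knockout libraries, against 326 and 158 CPM in the controls. Both knockout values were below both controls, and the log2 fold of -1.66 ± 0.71 (SE) passed the test at an adjusted p of 0.0497 (edgeR). Its downstream window holds the start of Cd163l1, a scavenger receptor gene whose start is 8061 bp away and which had 10.2 and 43.2 CPM upstream of itself in knockout, against 69.4 and 43.9 CPM in control. Olfr631 had 79.6 and 129 CPM upstream in knockout and 260 and 167 CPM in control, and its log2 fold of -1.04 ± 0.69 did not pass (adjusted p = 0.216). Olfr763 on chromosome 10 had 21.6 and 60.9 CPM upstream in knockout, against 191 and 126 CPM in control, a log2 fold of -1.94 ± 0.60 (adjusted p = 0.00685). In each of these genes control replicate 1 was the highest library. A typical gene, Olfr473, had 7.96 and 8.86 CPM upstream in knockout and 13.9 and 13.3 CPM in control.

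In gene bodies the highest levels were those of Olfr644, Olfr643, Olfr645, Olfr550 and Olfr433, and downstream those of Olfr65, Olfr524, Olfr544, Olfr557 and Olfr648. Olfr644, Olfr643 and Olfr645 are neighbours in the class I cluster, at 206393 to 231871 bp from the nearest beta-globin gene. Over its body Olfr643 had 1.85 and 3.58 CPM in knockout, against 11.1 and 7.42 CPM in control (log2 fold -1.74 ± 0.53, adjusted p = 0.00781). Downstream, Olfr65 had 134 and 131 CPM in knockout and 213 and 126 CPM in control, so its groups overlapped. Olfr550 lies 5949 bp from the start of Trim21, an antibody receptor gene, whose own upstream CPM was 33.0 and 28.8 in knockout and 26.0 and 26.5 in control.

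The second question was which of these genes differed between the genotypes. Each region class was tested over all genes with edgeR's quasi-likelihood test, at an adjusted p under 0.05. The filter on low counts kept 673 of the 1109 upstream regions, 414 gene bodies and 635 downstream regions, and 771 genes had at least 1 region tested. Upstream, 211 of 673 olfactory receptor genes (31.4%) fell and 0 rose, where 14.3% of all genes tested fell, 24.0% rose and 38.3% changed in either direction. Over gene bodies 92 of 414 (22.2%) fell and 0 rose, against 15.2% of all genes that fell and 23.1% that rose. Downstream 18 fell and 2 rose of 635; the 2.83% that fell is near the 2.29% of all genes, while 10.8% of all genes rose.

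The median log2 fold of the genes tested was -0.996 upstream, -0.98 in gene bodies and -0.36 downstream, beside -0.09, 0.02 and -0.03 over all genes tested. A sparse gene can pass the filter through the control libraries alone, so these medians and the shares above depend on it. With no filter the medians were -0.75, -0.72 and -0.23, beside -0.10, -0.002 and -0.02 over all genes. Upstream, 186 of 1106 receptor genes then fell and 0 rose, where 3014 of all 26328 genes fell and 5619 rose. Over gene bodies 61 of 1103 fell, where 2652 of all 24662 genes fell. Downstream 8 of 1106 fell, where 209 of all 26146 genes fell. Both knockout libraries lay below both controls in 77.0% of those tested upstream (39.9% of all genes), 73.7% in gene bodies (39.4%) and 44.9% downstream (32.7%). The upstream calls depend on the scaling. With totals pooled over the 3 region classes, 21 of the 673 genes fell and 4 rose upstream, where 458 of all 23200 genes tested fell and 7668 rose. Both knockout libraries were below both controls in 49.3% of those tested upstream (22.8% of all genes), 62.1% over gene bodies (30.3%) and 44.7% downstream (31%). The upstream TMM calls also depend on each library: without knockout replicate 1, knockout replicate 2 or control replicate 1 no upstream call was left by edgeR. Of all genes, 0%, 9.60% and 0.307% were called in these fits, and without knockout replicate 2 only 14 of all genes fell, so the loss was not the family's alone. DESeq2 with all 4 libraries called 54 of 673 receptor genes, all lower, where 1431 of all 23200 genes fell and 4504 rose. In the 3 edgeR fits without 1 of these libraries the receptor genes' median log2 fold was -0.58, -1.21 and -0.81. Over all genes it was 0.01, -0.08 and -0.09. Without control replicate 2, 19 were left.

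**Figure D2:**
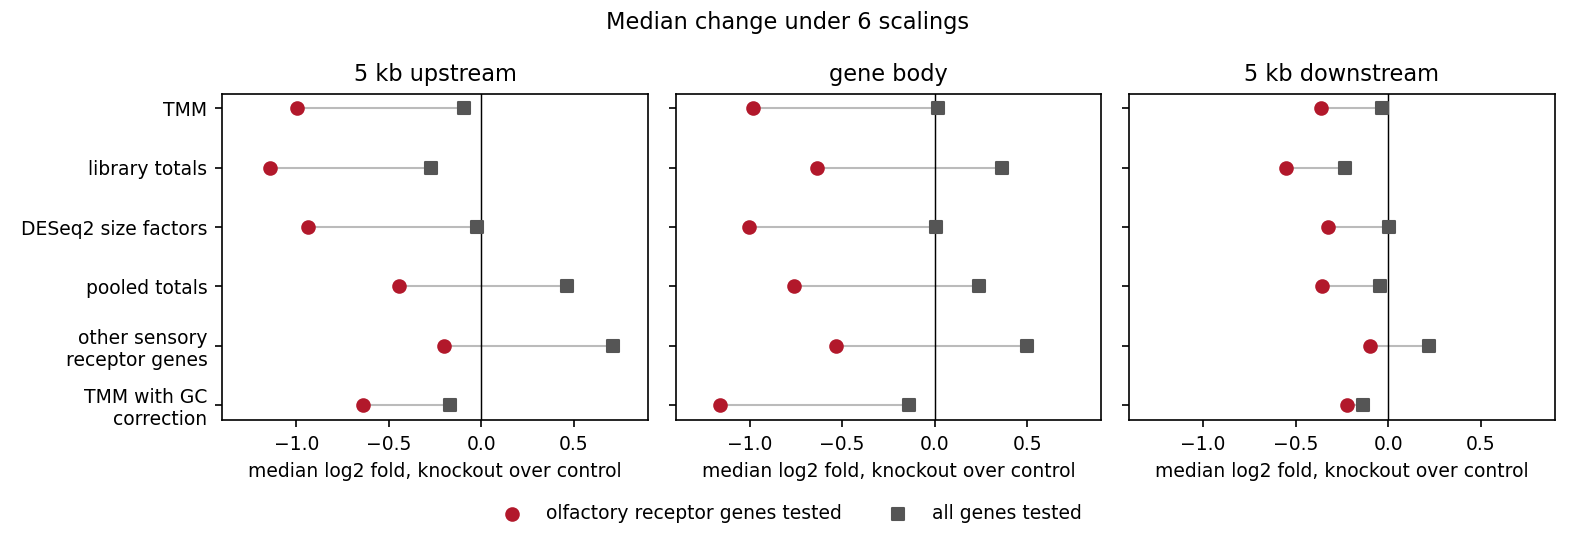
Median log2 fold, knockout over control (horizontal axis), of the olfactory receptor genes tested (circles) and of all genes tested (squares) under 6 scalings, in a panel for each region class. The receptor genes lie left of all genes in every panel and scaling shown, but their own upstream median runs over -1.14, -0.996, -0.94, -0.64, -0.44 and -0.20, so the size of the difference moves with the scaling.

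The lowest upstream folds were those of Olfr1447, Olfr683, Olfr923, Olfr585 and Olfr599, of which Olfr683, Olfr585 and Olfr599 are class I. Olfr683 (chromosome 7, 105143350 to 105144309) had 9.09 and 8.86 CPM upstream in the knockout libraries, against 59.9 and 41.4 CPM in the controls. Its log2 fold was -2.48 ± 0.53 (edgeR adjusted p = 5.65e-05), and it also fell over its body (-1.56 ± 0.65, adjusted p = 0.0499) and downstream (-1.65 ± 0.45, adjusted p = 0.0202). Olfr585 had 3.41 and 9.97 CPM upstream in knockout, against 37.3 and 32.3 CPM in control (log2 fold -2.35 ± 0.57, edgeR adjusted p = 0.000403). Olfr1447 on chromosome 19 rested on 3 upstream counts in knockout and 34 in control, a scaled ratio of 0.117 with an exact counting interval of 0.0229 to 0.371. All 5 still fell with pooled totals, and none was called by edgeR without knockout replicate 1, knockout replicate 2 or control replicate 1.

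Over gene bodies the lowest folds were those of Olfr960, Olfr585, Olfr596, Olfr668 and Olfr574. Olfr574, a class I gene, had 0.555 and 0.895 CPM in knockout, against 6.42 and 4.75 CPM in control (log2 fold -2.90 ± 0.64, edgeR adjusted p = 0.00031). The other four had 2 counts each over the knockout libraries. Their scaled ratios were 0.0711 for Olfr960 (0.00836 to 0.271), 0.0795 for Olfr585 (0.00932 to 0.306), 0.101 for Olfr596 (0.0118 to 0.396) and 0.115 for Olfr668 (0.0133 to 0.455), with exact counting intervals. Without control replicate 1 only Olfr574 of these was still called by edgeR.

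Of 374 genes tested in all 3 region classes, 7 were called in each, namely Olfr455, Olfr683, Olfr685, Olfr703, Olfr714, Olfr874 and Olfr981. Those called in at least 2 classes numbered 56. Of all genes tested, 38.3% were called upstream, 38.3% over gene bodies and 13.1% downstream. Calls shared between classes were not counted over all genes, so 7 and 56 are not read as many or few. Olfr455 (chromosome 6, 42538067 to 42539020), whose start window is printed above, had 30.7 and 46.5 CPM upstream in knockout, against 146 and 90.3 CPM in control. Its log2 folds were -1.61 ± 0.55 upstream, -2.31 ± 0.64 over the body and -1.53 ± 0.39 downstream (edgeR adjusted p = 0.0139, 0.00361 and 0.0148). Upstream this call did not hold with pooled totals. Downstream the lowest folds belonged to Olfr467, Olfr583, Olfr735, Olfr611 and Olfr608. Olfr608 had 13.1 and 17.1 CPM there in knockout, against 57.1 and 41.5 CPM in control (-1.68 ± 0.42, edgeR adjusted p = 0.0123), and none of these 5 was called without control replicate 1.

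The downstream windows of Olfr460 and Olfr986 rose. Olfr460 (chromosome 6, 40569152 to 40572504) had 89.5 and 27.7 CPM downstream in knockout, against 15.7 and 16.0 CPM in control (log2 fold 1.84 ± 0.48, edgeR adjusted p = 0.0171). Upstream of the same gene the values were 50.01 and 53.2 CPM in knockout and 122 and 108 CPM in control, which did not pass (adjusted p = 0.0813). Olfr986 had 98.8 and 43.5 CPM downstream in knockout, against 22.7 and 28.7 CPM in control (1.44 ± 0.40, adjusted p = 0.0252), while its upstream window fell (-1.14 ± 0.47, adjusted p = 0.0424). The downstream window of Olfr986 holds the start of Zfp202, a zinc finger gene chosen after values were seen, 5237 bp from the receptor's start. In both windows knockout replicate 1 was far above knockout replicate 2, and without it neither was called.

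Olfr433 (chromosome 1, 174041933 to 174042936) went the other way from most of the family. It had 88.6 and 77.6 CPM upstream in knockout and 49.5 and 26.5 CPM in control, 6.66 and 7.16 CPM over its body in knockout and 5.43 and 3.07 CPM in control, and 74.6 and 71.2 CPM downstream in knockout and 43.8 and 39.1 CPM in control. Both knockout libraries were above both controls in all 3 region classes, yet no test passed (edgeR adjusted p = 0.0568, 0.269 and 0.122). The nearest other coding gene is Ifi205, an interferon-inducible gene whose start lies 10178 bp away, chosen here after values were seen. Upstream of Ifi205 the CPM was 38.6 and 57.6 in knockout and 108 and 84.5 in control (adjusted p = 0.111).

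**Figure D3:**
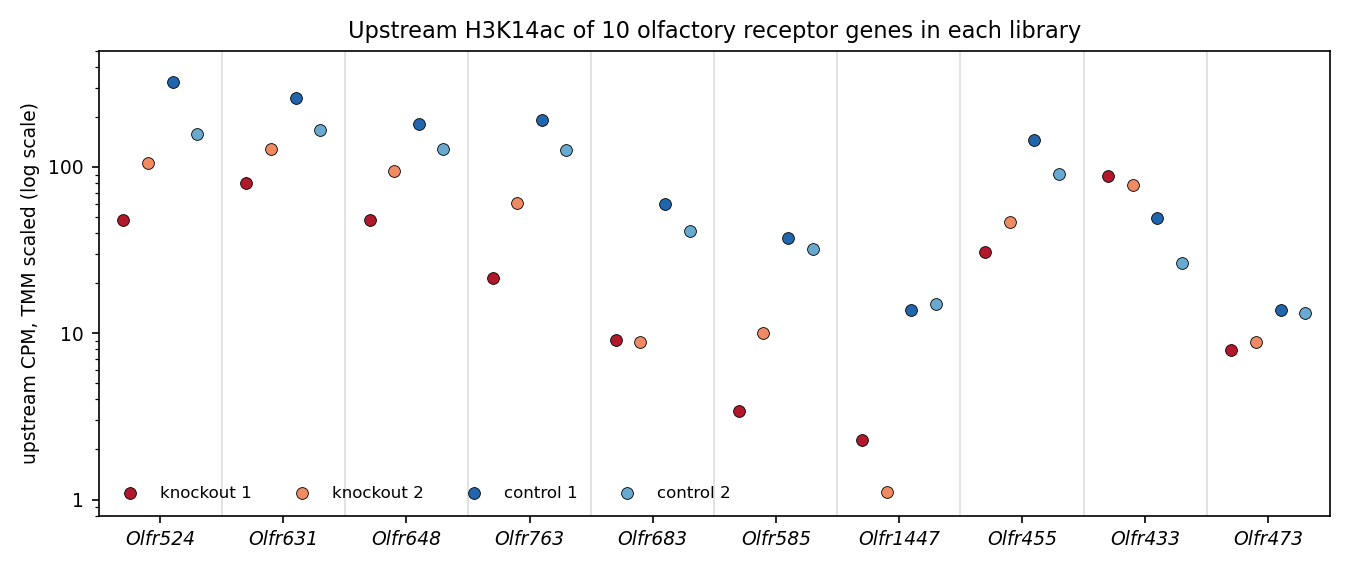
Upstream CPM (TMM scaled, log axis) of 10 olfactory receptor genes, with a point for each of 2 knockout and 2 control libraries. Olfr683, Olfr585 and Olfr1447 have both knockout points far below both controls, Olfr433 has them above, and the highest genes such as Olfr524 differ widely between the controls (326 and 158 CPM).

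A further question was whether the family behaves as 1 background. Density and its difference between genotypes varied with position. Upstream, the 21 genes with another coding gene's start within 10 kb had densities of 0.482 and 0.722 in knockout, against 1.01 and 0.902 in control. The 195 genes at 10 to 50 kb had 0.522 and 0.737 in knockout, against 0.849 and 0.839 in control, and the 425 at 50 to 200 kb had 0.320 and 0.456, against 0.535 and 0.516. In these 3 groups the knockout libraries lay below the controls. The 468 genes farther than 200 kb from any such start had 0.148 and 0.196 in knockout and 0.178 and 0.194 in control, and the groups overlapped. The ratio of means, knockout over control, was 0.630, 0.746, 0.739 and 0.923 from the nearest group to the farthest. Over gene bodies the same ratio rose at each step, at 0.574, 0.628, 0.707 and 0.806. Downstream it kept no such order, at 0.913, 0.776, 0.725 and 0.970. Over gene bodies the farthest group did not overlap, at 0.260 and 0.356 in knockout, against 0.374 and 0.391 in control (ratio 0.806). Downstream the farthest group overlapped, at 0.147 and 0.180 in knockout and 0.157 and 0.180 in control, and so did the nearest, at 0.536 and 0.631 in knockout and 0.651 and 0.628 in control. Each of these comparisons has 2 libraries a group, so no exact test could pass.

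**Figure D4:**
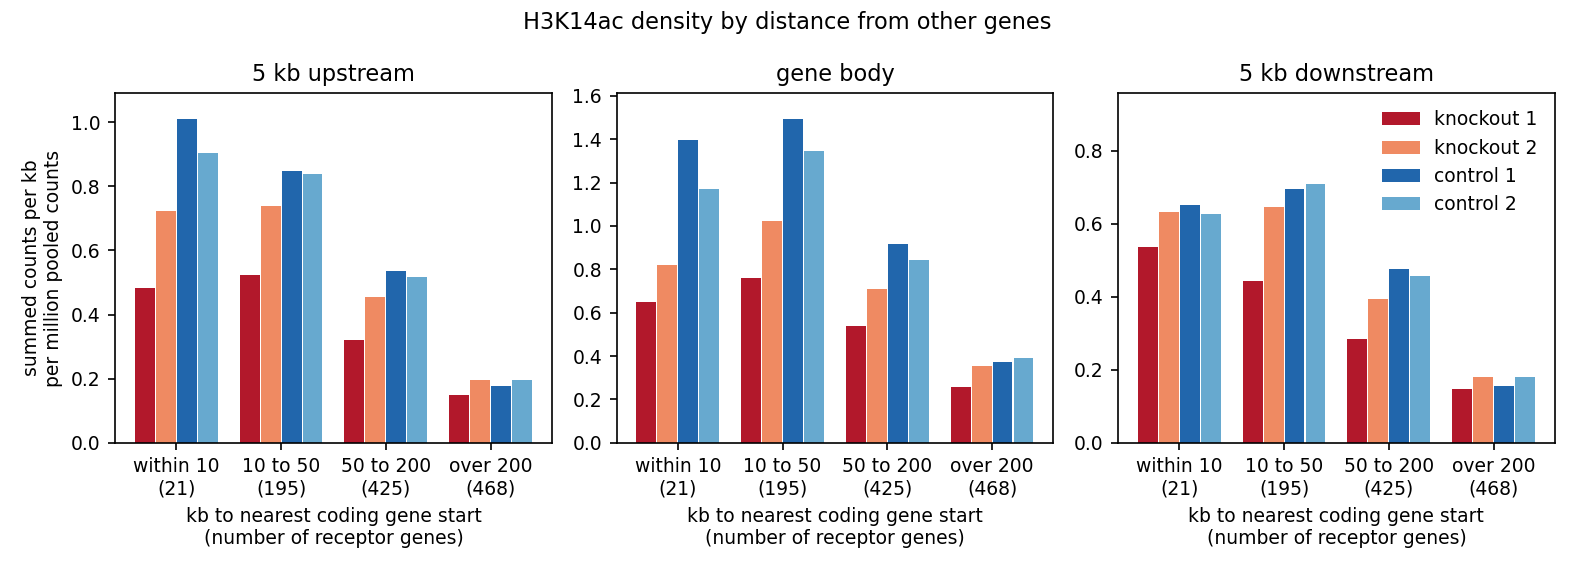
Summed H3K14ac density (vertical axis, CPM per kb on pooled totals) of the olfactory receptor genes grouped by distance to the nearest start of another coding gene (horizontal axis, kb, gene numbers in brackets), with a bar for each of 2 knockout and 2 control libraries. In the upstream panel the 468 genes beyond 200 kb reach 0.148 and 0.196 in knockout and 0.178 and 0.194 in control, where the groups overlap.

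GC content ran along with distance. Upstream, split by upstream GC content into 3 groups of near equal size, the ratio of means, knockout over control, was 0.966 in the low-GC group, 0.816 in the middle group and 0.709 in the high-GC group. Over gene bodies, grouped by their own GC content, the low-GC group had 0.267 and 0.374 in knockout, against 0.404 and 0.406 in control (ratio 0.791), so the groups did not overlap there. Within the upstream low-GC group, the 228 genes beyond 200 kb had 0.115 and 0.152 in knockout and 0.107 and 0.123 in control, while the 142 nearer ones had 0.170 and 0.233 in knockout and 0.249 and 0.246 in control. Within the upstream high-GC group both kinds were lower in knockout: the 69 far genes had 0.222 and 0.352 in knockout, against 0.412 and 0.415 in control, and the 301 nearer ones 0.538 and 0.760, against 0.923 and 0.902. The parts of GC content and distance in the result were not tested apart. In edgeR with a GC correction 139 of 673 genes fell and 4 rose upstream, where 4312 of all 21808 genes fell and 4719 rose. The share that fell was thus near that of all genes, while few of the family rose. The median log2 fold was -0.64 upstream beside -0.17 over all genes, and -0.22 beside -0.13 downstream. Over gene bodies the same correction moved the other way, with 169 of 414 genes that fell and a median of -1.16 beside -0.14. There 4641 of all 20606 genes fell and 4047 rose.

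Clusters also differed from each other. Upstream, 24 of the 49 clusters, with 637 genes, had both knockout densities below both controls, 2 clusters with 52 genes had both above, and 23 with 420 genes overlapped. Clusters of other genes were not formed, so 24 is not read as many or few. The median control density was 0.867 in the 24 and 0.380 in the others. The same control values sorted the clusters, so this contrast is no separate support. The 224-gene cluster on chromosome 2 had 0.121 and 0.168 in knockout and 0.139 and 0.153 in control, among the lowest of the family. A cluster of 8 genes on chromosome 1 (92479681 to 92621001) had 0.781 and 1.27 in knockout, against 1.76 and 1.82 in control.

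**Figure D5:**
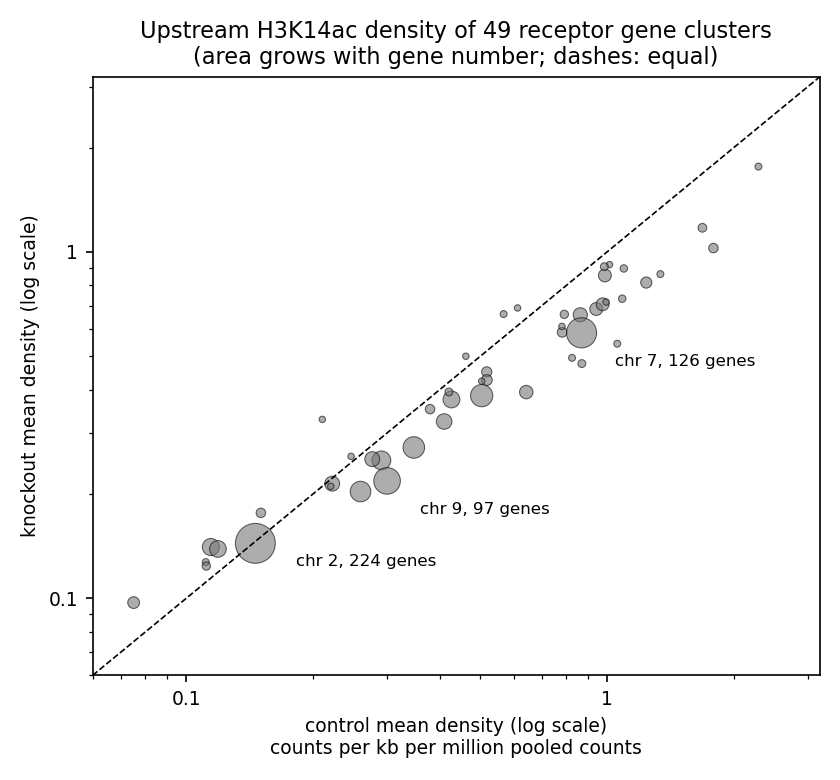
Mean upstream density of the 49 clusters in knockout (vertical axis) and control libraries (horizontal axis), both on log scales in CPM per kb on pooled totals; the area of a point grows with the number of genes and the dashed line marks equal values. Sparse clusters such as the 224 genes on chromosome 2 lie near the line, and denser ones such as the 126 genes on chromosome 7 lie below it.

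Class I genes were denser than class II genes in every library and region class. They had 0.465 and 0.710 upstream in knockout, against 0.926 and 0.805 in control, while class II genes had 0.262 and 0.360 in knockout and 0.384 and 0.395 in control. The class I over class II ratio was 1.77 and 1.97 in knockout, against 2.41 and 2.04 in control. Of the class I genes tested, 58 of 121 fell upstream, 39 of 104 over the body and 7 of 113 downstream. Of class II, 144 of 536, 48 of 300 and 10 of 505 fell. Over all genes tested 14.3%, 15.2% and 2.29% fell. Median log2 folds of those tested were -1.15, -1.27 and -0.67 in class I and -0.93, -0.92 and -0.30 in class II. Calls are easier to reach in denser genes, so these counts do not rank the classes. The beta-globin genes inside the cluster switch on in the red cell lineage, and the 13 receptor genes within 100 kb of them had 0.697 and 1.06 upstream in knockout and 1.26 and 1.07 in control. At 500 kb to 2 Mb, 77 genes had 0.415 and 0.629 in knockout, against 0.882 and 0.780 in control. Upstream, 3 of the 13 nearest genes fell (Olfr69, Olfr66 and Olfr632), against 43 of 76 tested in the farther set. At 100 to 500 kb, 16 of 35 tested fell, and of all genes tested 14.3% fell. These calls use TMM and depend on the scaling. Class I genes beyond 500 kb of the globins were still 1.65 and 1.82 times as dense as class II genes on other chromosomes in knockout, against 2.38 and 2.03 times in control.

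Members at other loci were also read by position. The 17 genes within 100 kb of an H2-M gene on chromosome 17 had 0.355 and 0.401 upstream in knockout, against 0.522 and 0.420 in control. Of these, 4 of 15 tested fell, beside 14.3% of all genes tested, and so few genes show no more than their own values. Olfr49, within 100 kb of a T cell receptor constant gene on chromosome 14, had 14.8 and 18.8 CPM upstream in knockout and 22.6 and 34.8 CPM in control (edgeR adjusted p = 0.206). The 6 genes on the X chromosome, present once in a male cell, had 0.341 and 0.445 times the autosomal density upstream in knockout and 0.305 and 0.274 times in control, on 168 counts in all.

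The shape of the signal around these short genes also differed. Among the 999 genes under 1200 bp, upstream density was 0.538 and 0.561 of the gene body density in knockout, against 0.436 and 0.475 in control, and downstream density 0.488 and 0.491, against 0.373 and 0.414. The groups did not overlap in either ratio (exact permutation p = 0.333, the smallest that 2 libraries a group allow). Upstream over downstream density was 1.10 and 1.14 in knockout, against 1.17 and 1.15 in control. All other genes had a mean summed density of 1.05 upstream, 0.743 over bodies and 0.757 downstream in knockout. In control these values were 0.606, 0.812 and 0.653. Flanks thus gained on bodies there too, so the shift was not the family's alone. GC content and read placement differ between bodies and flanks, and their part was not tested.

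Genes that work with the receptors were set beside them. Of the 17 olfactory signalling genes, 3 rose and 5 fell of 16 tested upstream, 1 rose and 6 fell of 15 over the body, and 1 rose of 16 downstream. Of all genes tested 24.0% rose and 14.3% fell upstream, 23.1% and 15.2% over the body, and 10.8% and 2.29% downstream, and so few genes show no more than their own values. Gnal, the G protein alpha subunit of these neurons, fell upstream, with 11.4 and 32.1 CPM in knockout and 53.8 and 51.4 CPM in control (log2 fold -1.27 ± 0.47, edgeR adjusted p = 0.0239). Cnga2, a subunit of the cyclic nucleotide-gated channel, fell too, with 13.6 and 33.2 CPM in knockout and 72.9 and 48.1 CPM in control (-1.36 ± 0.47, adjusted p = 0.0162). Cnga4, another subunit, rose upstream, with 77.3 and 45.4 CPM in knockout and 4.34 and 4.14 CPM in control (3.82 ± 0.57, adjusted p = 5.55e-09). Omp, the olfactory marker protein gene, was at 0 counts over its body in every library. Of the 15 genes that act in receptor choice and nuclear packing, 5 rose of 14 tested upstream, 5 rose and 3 fell of 15 over the body, and 1 rose and 1 fell downstream. Lbr, which tethers heterochromatin to the nuclear rim, rose over its body, with 54.4 and 23.4 CPM in knockout and 8.10 and 9.90 CPM in control (2.11 ± 0.38, adjusted p = 1.15e-05). Ebf1, an EBF factor also needed by B cells, fell over its body, with 242 and 352 CPM in knockout and 708 and 566 CPM in control (-1.10 ± 0.34, adjusted p = 0.00773).

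Markers of cell types that a sort could hold were read the same way upstream. Of LSK markers 3 of 10 rose and 1 fell, of granulocyte and monocyte markers 1 of 6 rose, and none of 6 tested changed among B cell, T cell, erythroid, or stromal and endothelial markers; 2 of 6 olfactory neuron markers fell, both named above. The summed density of the granulocyte and monocyte markers was 3.09 and 1.62 in knockout, against 1.16 and 1.31 in control. Over gene bodies 2 of 10 LSK markers rose and 1 fell, 2 of 5 B cell and 2 of 6 stromal and endothelial markers fell, 1 of 6 T cell markers rose and 1 fell, and 1 of 6 granulocyte and 1 of 4 erythroid markers rose. Downstream 2 of 10 LSK, 3 of 6 T cell, 1 of 6 B cell and 1 of 5 erythroid markers rose, and none tested fell in any of these lists. The summed downstream density of the T cell markers was 1.79 and 1.19 in knockout, against 0.610 and 0.714 in control. That of the LSK markers was 1.55 and 1.26 in knockout, against 0.901 and 1.02 in control. Genes outside the receptor family had 0.792 and 0.721 downstream in knockout, against 0.636 and 0.669 in control. For erythroid and for stromal and endothelial markers the groups overlapped there. These counts stand beside the shares of all genes given above; the part of such cells in the receptor counts was not tested.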

How the data were processed

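Deposited files give whole-number counts of reads per Entrez gene over 3 region classes, made by the authors with featureCounts on mm10, per the submitters' processing notes; the aligner, annotation release, duplicate handling and any spike-in are not given in the sources used here. Values are raw counts, and the series and per-library files differed in 0 values. Symbols, positions, GC content and start windows came from RefSeq on GRCm38.p6, the same assembly; 25275 genes had a symbol. Each region class was scaled and tested alone: edgeR 4.0.16 in R 4.3.3, filterByExpr (minimum count 10, total 15), TMM, quasi-likelihood F-test without covariates, Benjamini-Hochberg over all genes tested, threshold 0.05. The SE is the log2 fold divided by the square root of F. The edgeR step was tested on simulated data. Single values were compared by exact permutation over 6 assignments. Density divides by pooled totals of the 3 region classes.

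Named genes were, in each region class, the 5 highest levels, the 5 lowest and 5 highest log2 folds among called genes whose groups did not overlap, the 3 nearest the median level, up to 5 genes called in all 3 classes, other genes starting within 10 kb of the highest, and those within 100 kb of beta-globin, T cell receptor constant or H2-M genes; Olfr981, Olfr1506, Olfr482 and Olfr834 were added after their values were seen. Members, lists and rules were chosen with earlier results of these data known. Receptor pairs can share near-identical sequence, and 174 upstream regions overlap a region of any class of another member. Alternatives were library totals, DESeq2 1.42.0 size factors and Wald test, pooled totals, scaling on other sensory receptor genes, limma-trend (3.58.1), no filter, only regions with mean counts of 50 or more, a GC correction (loess span 0.3), a replicate block and each library left out. Tables and plots used scipy 1.17.1, numpy 2.4.6 and pandas 2.3.3 under Python 3.11.15, with matplotlib 3.10.9.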

Additional observations from a re-analysis of the deposited data

How the results depend on the processing

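The number of olfactory receptor genes called was less stable than their direction: the median log2 fold was negative in every fit run. The share of counts stayed lower in knockout in the alternatives run for it, which were pooled totals, totals without the genes of most counts, regions with no other gene's start, and each library left out. Upstream, 211 calls became 25 with pooled totals (21 fell, 4 rose), 10 with scaling on the other sensory receptors (6 fell, 4 rose), 31 at a mean count of at least 50 and 54 with the DESeq2 Wald test; the median became -0.44 with pooled totals and -0.20 with sensory receptor scaling, and the median over all genes moved to 0.46 and 0.71. Leaving out 1 library gave 0 to 19 calls upstream with medians from -1.21 to -0.58. Over gene bodies, 92 calls became 34 with library totals, 45 with pooled totals, 0 with sensory receptor scaling (where edgeR called none of all genes and 48 members had an unadjusted p under 0.05), 61 with no filter, 5 at a mean count of at least 50, 169 with the GC correction and 17 with the Wald test. The median there was -0.64 with library totals, -0.76 with pooled totals, -0.53 with sensory receptor scaling, -0.72 with no filter and -0.73 at a mean count of at least 50; leaving out 1 library gave 2 to 134 calls and medians from -1.21 to -0.74. Downstream, 20 calls became 36 with library totals (median -0.55), 13 with DESeq2 size factors, 3 with sensory receptor scaling (3 rose, median -0.10), 8 with no filter, 1 at a mean count of at least 50, 1 with the Wald test and 10 with limma-trend; leaving out 1 library gave 1 to 51 calls and medians from -0.48 to -0.20. The cause of each move was not tested. The upstream share of counts differed by -1.59 percentage points.

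The labels do not pair libraries of equal replicate number, and their deviations from the group means had a correlation of -0.27 upstream, -0.36 over gene bodies and -0.21 downstream across all genes tested. With a replicate block there were 59 calls upstream, 33 over gene bodies and 15 downstream, of which 59, 33 and 14 were calls without it. With the GC correction as well there were 39, 65 and 10, of which 37, 58 and 10 were. Under the block the genes called in all 3 region classes that the rule names lost their upstream call, 0 of 5 being called.

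Depth limits what single genes show: 436 upstream regions, 695 gene bodies and 474 downstream regions were too sparse to test, and 3, 6 and 3 members had no count in any library.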
